A study of Homo sapiens with 6 samples.

Results

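In A549 cells, 6 loci were examined: RTN4RL1, PRR15L, HPCAL1, THBD, PDZD2 and SH3TC2. Each carried an accessible site after dexamethasone and no called site after vehicle, and the site was strong among regions of that pattern. Accessibility was measured by DNase-seq, in which the nuclease DNase I cuts open chromatin and the freed ends are sequenced. A549 is an established human lung adenocarcinoma line. The cells had received 100 nM dexamethasone for 1 h (3 libraries) or 0.02% ethanol, the vehicle, for 1 h (3 libraries), and no other agent is named in the labels. The labels number the libraries 1 to 3 within each treatment but do not say whether these are separate cultures, so p-values measure only the spread between these libraries, which may be technical. The 6 sites were chosen by the measured values described here: a peak in all 3 dexamethasone libraries, no peak in any ethanol library, and a high place within the lists. Their own calls and strengths are therefore given as a description and were not tested. Within 100 kb of the 6 positions there were 99 merged regions, the 6 sites included, of 81216 regions in the whole data set. Each list held 58281 to 61344 peaks, and the files give peaks without read counts, so the depth is unknown. Where a library lacks a peak, its signal was under the caller's limit, and the chromatin need not have been closed.

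Dexamethasone is a man-made steroid ligand of the glucocorticoid receptor, a nuclear receptor that binds DNA as a dimer at palindromic elements or is recruited through other factors. Most receptor binding falls on chromatin that is already open, and a smaller share creates new DNase-accessible sites, many of them far from gene starts. In lung epithelial cells the receptor acts within minutes to hours on genes of inflammation, metabolism, barrier function and the circadian clock.

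The 6 genes are known from different settings. RTN4RL1 encodes a leucine-rich repeat protein of the Nogo receptor family, known from neurons. HPCAL1 is a neuronal calcium sensor of the visinin-like family. THBD is thrombomodulin, the surface receptor that binds thrombin and turns it towards activation of the anticoagulant protein C. PDZD2 is a large protein with several PDZ domains, and SH3TC2 is an SH3 and tetratricopeptide protein of endosome recycling in Schwann cells, mutated in a form of Charcot-Marie-Tooth disease. PRR15L is a proline-rich protein of which little is known. The gene names serve as labels of the loci. An hg19 annotation was not used here, so whether a site lies in an exon, an intron or between genes, and how far it lies from the gene start, was not determined.

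The bases of the sites themselves are not shown, because an hg19 genome was not used here. RefSeq promoters on GRCh38.p14, each 300 bases long, were matched for 2 of the 6 genes: HPCAL1 with 3 starts and SH3TC2 with 1. They were searched on both strands for the receptor hexamer (AGAACA or TGTTCT, each the reverse complement of the other), the full palindromic receptor element that holds both hexamers, TGANTCA (AP-1), TGTTTAC (forkhead), TTGCNNNAA (C/EBP) and the palindrome CCACGTGG (E-box). None of the 4 promoters held any of the first 5. Among 35116 promoters of that length, the hexamer occurred in 14.8%, the full element in 0.00285%, the AP-1 letters in 7.71%, the forkhead letters in 3.42% and the C/EBP letters in 9.21%. One HPCAL1 start, chr2:10303450-10303749 on the plus strand of GRCh38.p14, held the E-box, as did 0.928% of all promoters. It is shown because it was the only promoter with a match, which capitals mark. None of the peaks could be placed on it, as they are in hg19 coordinates, and absence of these letters from the window says nothing more about the factors.
HPCAL1 promoter: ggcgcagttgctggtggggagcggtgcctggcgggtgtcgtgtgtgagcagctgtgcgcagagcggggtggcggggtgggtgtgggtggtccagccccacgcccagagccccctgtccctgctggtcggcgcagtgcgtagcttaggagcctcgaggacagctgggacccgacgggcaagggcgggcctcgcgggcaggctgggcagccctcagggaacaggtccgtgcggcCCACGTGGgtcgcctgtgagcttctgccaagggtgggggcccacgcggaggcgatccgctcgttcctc

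The first question was how strong and how alike the 6 sites were. Genome-wide, the pattern of a peak in every dexamethasone and in no ethanol library covered 1.10% of merged regions, and the sites were chosen for it, so nothing is read from their count of 6 of 6. Strength was read from the authors' values for single peaks in 2 ways. The first is the summit's fold enrichment over background. The other is the percentile of the peak's −log10 q within its own list, where 100 is the strongest peak. Ordered by mean percentile among the 897 regions of this pattern, the sites held places 2 (PRR15L), 3 (RTN4RL1), 8 (HPCAL1), 9 (THBD), 11 (SH3TC2) and 12 (PDZD2). The last of them, PDZD2, had a mean percentile of 67.9, and the region that followed in this order, which is not a member, had 66.6. The sites were strong for their pattern. Their median percentiles in dexamethasone replicates 1, 2 and 3 were 73.4, 65.7 and 76.6. Those of the other dexamethasone-only regions were 27.7, 23.3 and 23.1. Regions called in all 6 libraries had medians of 65.3, 66.7 and 65.3, so in replicate 2 the sites' median lay below theirs.

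The RTN4RL1 site (hg19 chr17:1884728-1885205) was the most even of the 6 in percentile. Its fold enrichments in dexamethasone replicates 1, 2 and 3 were 8.61, 8.48 and 9.04, a mean of 8.71 ± 0.29 (SD, n = 3). Its percentiles were 76.4, 72.3 and 76.8. At the PRR15L site (chr17:46032841-46033292) the fold enrichments were 8.79, 6.71 and 7.96, and the percentiles 79.3, 66.6 and 79.8. Replicate 2 stood below replicates 1 and 3 there, and the mean fold was 7.82 ± 1.05 (SD, n = 3).

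The HPCAL1 site (chr2:10482399-10483097) had the lowest folds and the widest region of the 6. Its fold enrichments were 6.75, 6.67 and 7.24, a mean of 6.89 ± 0.31 (SD, n = 3), yet its percentiles of −log10 q were 72.1, 70.0 and 76.5. By fold alone it stood at percentiles of 46.1, 44.4 and 54.6 of its lists. The fold of a peak and its q are therefore not interchangeable as measures of strength, and this was not particular to HPCAL1. In dexamethasone replicate 2, PRR15L stood at 44.7 by fold against 66.6 by −log10 q, and THBD at 44.7 against 64.8. Only SH3TC2 stood higher by fold in any library, at 77.9 against 74.0 in replicate 1 and 63.8 against 57.8 in replicate 2. In replicate 3 it stood lower by fold, at 70.2 against 75.9. The THBD site (chr20:23020351-23020979) had folds of 8.07, 6.71 and 8.30, a mean of 7.69 ± 0.86 (SD, n = 3), and percentiles of 70.7, 64.8 and 79.6.

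The 2 sites on chromosome 5 were the lowest of the 6 by mean percentile. At the PDZD2 site (chr5:31990858-31991307) the folds were 9.14, 8.06 and 7.28, a mean of 8.16 ± 0.94 (SD, n = 3), and the percentiles 72.7, 64.7 and 66.4. The SH3TC2 site (chr5:148358456-148359038) had folds of 10.4, 8.54 and 8.82. These were the highest of the 6 sites in replicates 1 and 2, while RTN4RL1 was higher in replicate 3, and SH3TC2 had the highest mean of 9.27 ± 1.03 (SD, n = 3). Its percentiles were 74.0, 57.8 and 75.9, the widest spread of the 6 (SD 9.96).

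Ordered by mean fold the sites ran SH3TC2, RTN4RL1, PDZD2, PRR15L, THBD and HPCAL1. Each site differed from its neighbour in this order by less than the larger SD of the pair. Dexamethasone replicate 2 had the lowest percentile of the 3 libraries at all 6 sites. It was the lowest at 323 of 891 (36.3%) of the other dexamethasone-only regions and at 11 of 59 (18.6%) of the shared regions within 100 kb of the sites. Over all 39934 shared regions it was the lowest at 26.1%. Replicate 3 was the lowest most often among the other dexamethasone-only regions (39.1%) and among all shared regions (40.1%). What part replicate 2 has in the spread at the sites was not tested.

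**Figure D1:**
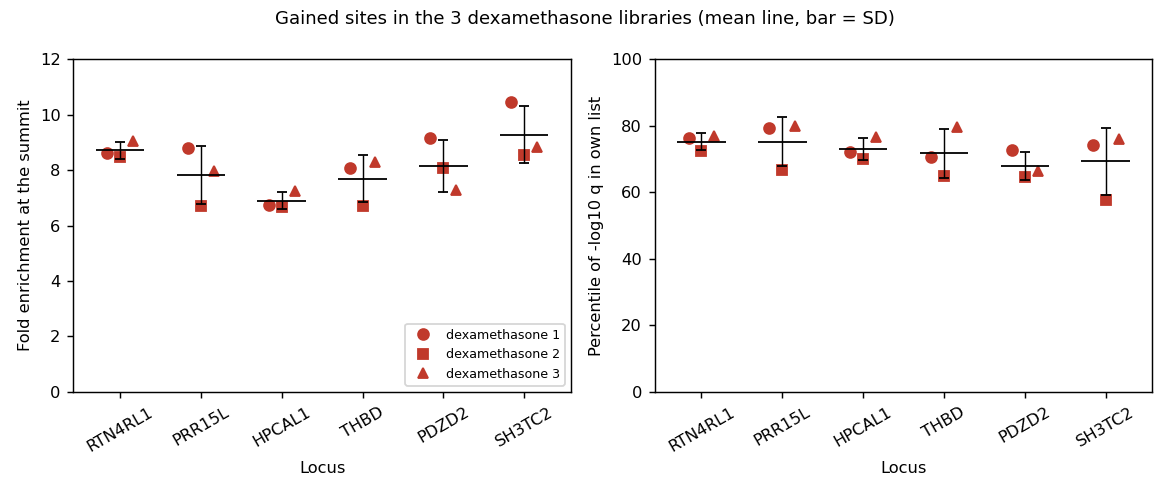
Fold enrichment at the summit (left) and percentile of −log10 q within the library's own list (right) of the peak at each of the 6 gained sites, 1 point per dexamethasone library, with the mean and SD of 3 libraries. No ethanol library had a peak at these sites. HPCAL1 had the lowest mean fold (6.89) and SH3TC2 the highest (9.27), while replicate 2 had the lowest percentile at every site.

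The next question was what the sites shared beyond the values they were chosen by. Each site was a single peak in each dexamethasone library, and the summits of the 3 libraries lay within 17 bp of each other at SH3TC2, 20 bp at PRR15L, 55 bp at THBD, 71 bp at PDZD2, 72 bp at RTN4RL1 and 114 bp at HPCAL1. Over the other 891 dexamethasone-only regions the median spread was 50 bp (quartiles 28 and 86 bp). The sites were wide. Their widths ran from 450 bp (PDZD2) to 699 bp (HPCAL1), all above the upper quartile of 433 bp of the other dexamethasone-only regions, whose median was 355 bp. Width and −log10 q come from the same peaks, so the widths are a description and not separate support.

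All 6 sites lay within 10.8 kb of chromatin called open in both treatments. From the site to the closest region shared by all libraries it was 2.09 kb at PDZD2, 5.50 kb at SH3TC2, 5.84 kb at PRR15L, 7.07 kb at RTN4RL1, 8.15 kb at THBD and 10.8 kb at HPCAL1. The other dexamethasone-only regions had a median gap of 9.82 kb, with quartiles of 3.53 and 26.1 kb, so 5 of the 6 sites lay below that median and 1 above it. Ethanol peaks came closest at PRR15L, with a gap of 1.16 kb to chr17:46034305-46034998. That region held weak peaks of ethanol replicates 2 and 3 (folds 3.62 and 3.95) and of dexamethasone replicate 1 (2.59). At the remaining loci this gap was 2.09 kb (PDZD2), 4.20 kb (THBD), 4.95 kb (SH3TC2), 7.21 kb (RTN4RL1) and 10.8 kb (HPCAL1).

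The loci differed in how densely they were set with open chromatin. PRR15L had 23 other regions within 100 kb, 17 of them called in all 6 libraries. RTN4RL1 had 19 with 13 shared, HPCAL1 19 with 11 shared, SH3TC2 12 with 6 shared, PDZD2 11 with 6 shared and THBD 9 with 6 shared. The other dexamethasone-only regions had a median of 12 regions (quartiles 7 and 17) and of 5 shared regions (quartiles 3 and 9) in such a window. The 2 sites on chromosome 17 and the HPCAL1 site thus lay above the upper quartile on both counts, and the THBD, PDZD2 and SH3TC2 sites between the quartiles. THBD had no region between its shared region at +22.2 kb and the limit at 100 kb.

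**Figure D2:**
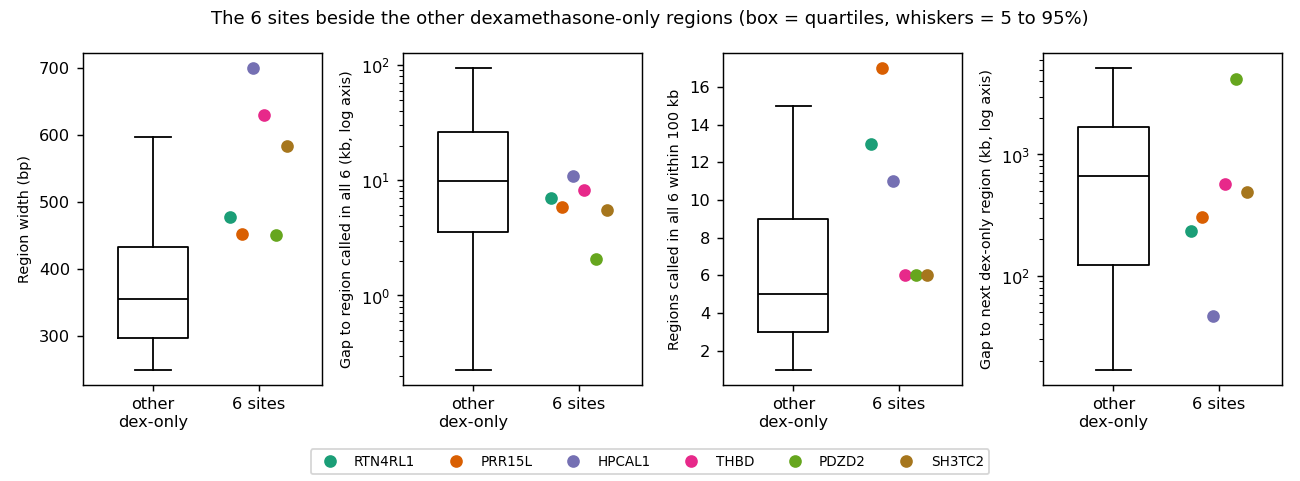
Width of the region, gap to the closest region shared by all 6 libraries, number of such regions within 100 kb, and gap to the next dexamethasone-only region, for the 6 sites (coloured points) and the other 891 dexamethasone-only regions (box with median and quartiles, whiskers from 5 to 95%). The 6 widths, 450 to 699 bp, lie above the upper quartile of 433 bp, and the gap to the next dexamethasone-only region ranges from 46.6 kb at HPCAL1 to 4187 kb at PDZD2.

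HPCAL1 was the one locus with a second gained region among its 19 neighbours. At chr2:10529746-10530313, +47.3 kb from the site, all 3 dexamethasone libraries had a peak, with folds of 5.10, 5.23 and 6.06 (mean 5.46 ± 0.52, SD, n = 3) and percentiles of 59.6, 57.9 and 64.1, and no ethanol library had one. Another region of this locus, chr2:10548032-10548307 at +65.4 kb, had a peak in the 3 dexamethasone libraries (folds 4.02, 3.58 and 4.45) and a weaker one in ethanol replicate 3 alone (2.77). Between them lay regions called in both treatments, at +59.8 and +63.0 kb. The next dexamethasone-only region was 234 kb from the RTN4RL1 site, 304 kb from PRR15L, 495 kb from SH3TC2, 568 kb from THBD and 4187 kb from PDZD2.

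Over all 6 loci, the shares of calls outside the sites were close to or below those of the genome. Of the 93 neighbouring regions, 1 (1.08%) was dexamethasone-only, against 1.10% of all regions, and 0 were ethanol-only, against 0.662%. A peak in at least 2 more dexamethasone than ethanol libraries was found for 4 of 93 (4.30%), against 4.47% of all regions. The reverse was found for 2 of 93 (2.15%), against 4.80%. The shares near the background are no result about these loci, and the last rests on 2 regions. Without dexamethasone replicate 1 the dexamethasone-only count was 3, and without ethanol replicate 3 it was 2. The ethanol-only count was 1 without dexamethasone replicate 1 or 2. These counts come from a rule that then needs fewer libraries. Besides the 2 HPCAL1 regions above, the dexamethasone-leaning ones lay at RTN4RL1, −24.4 kb (chr17:1860406-1860678, folds 4.92 and 4.31 in replicates 2 and 3), and at SH3TC2, +84.1 kb (chr5:148442635-148442978, folds 6.62 and 3.83 in replicates 2 and 3). The ethanol-leaning ones lay at PRR15L, +47.1 kb (chr17:46079981-46080320), and at PDZD2, −27.9 kb (chr5:31963025-31963394). Both had weak peaks, with folds of 4.61, 5.05 and 4.45 in the ethanol libraries at PRR15L and of 5.31, 5.12 and 4.25 at PDZD2. Each also had 1 peak in a dexamethasone library, with folds of 4.41 and 4.68. Peaks of a single library made up 17 of the 93 regions (18.3%), 6 from dexamethasone and 11 from ethanol libraries. This share is near the 18.9% of all regions and is no result about these loci.

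**Figure D3:**
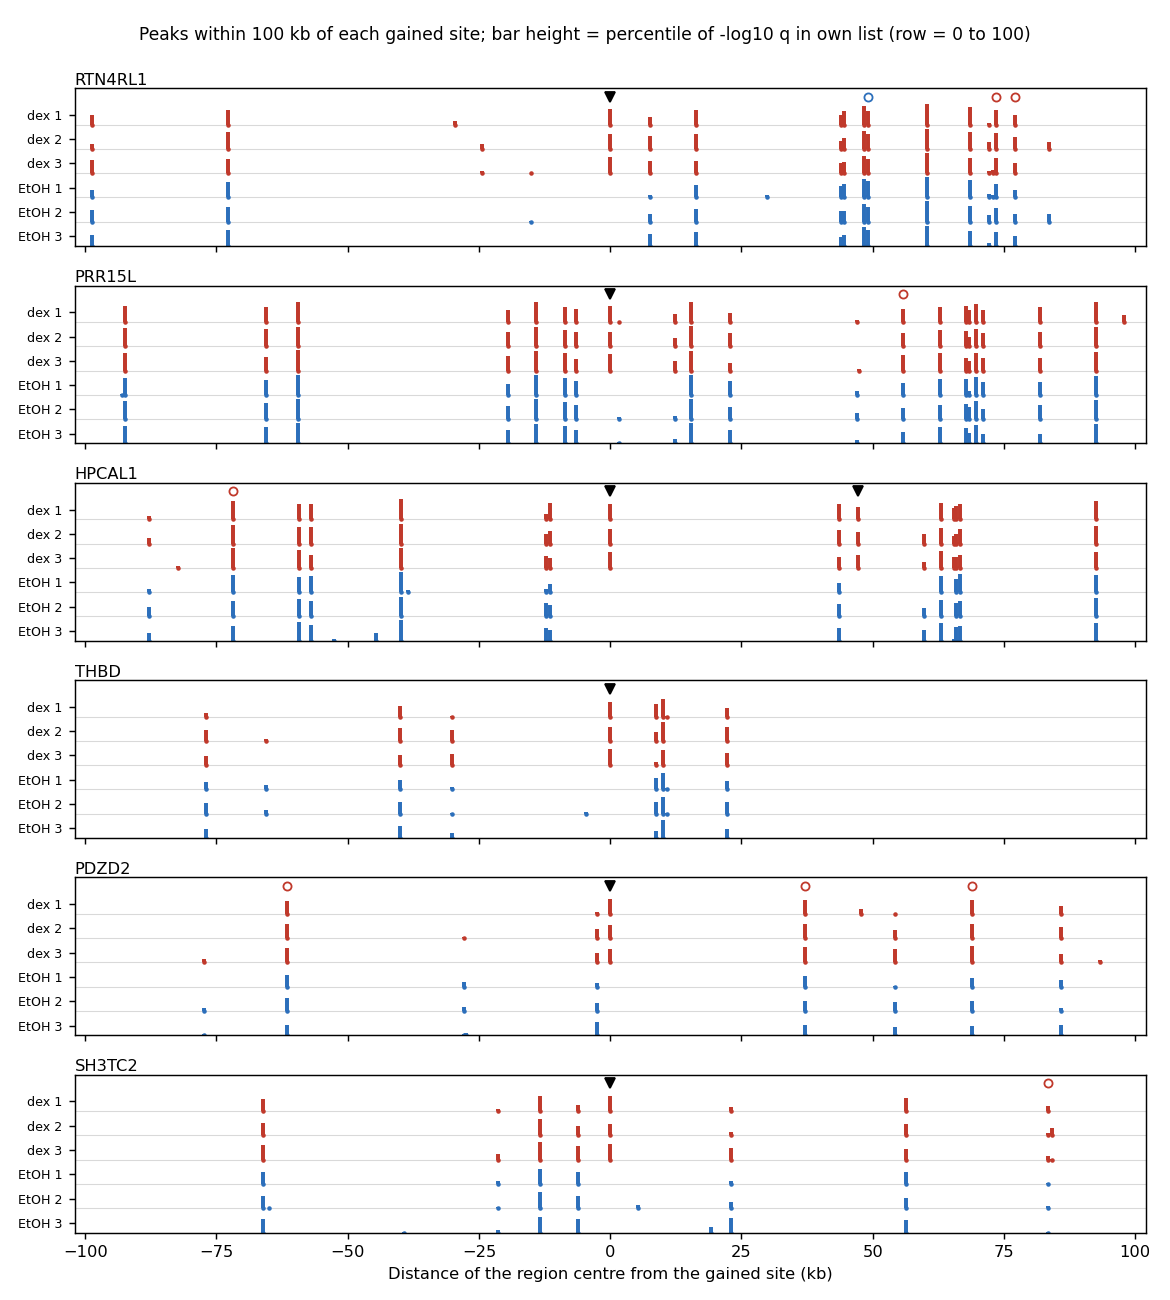
Peaks of the 6 libraries within 100 kb of each gained site, by distance of the region's centre from the site (kb), with the percentile of −log10 q in the library's own list as bar height (each row spans 0 to 100, a dot marks the foot of each bar). Triangles mark dexamethasone-only regions, red circles regions called in all 6 libraries with ranks higher in every dexamethasone library and blue circles the reverse. HPCAL1 has a second triangle at +47.3 kb and PDZD2 has 3 red circles.

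The difference between treatments in the number of peaks outside the sites was smaller than the spread between libraries. Summed over the 6 loci, the dexamethasone libraries had 75, 71 and 78 peaks and the ethanol libraries 71, 78 and 78. The ranges overlapped, with means of 74.7 ± 3.5 and 75.7 ± 4.0 (SD, n = 3 each), and the difference of −1 peak gave p = 1 by an exact two-sided permutation test over libraries, whose smallest possible p is 0.1. By locus the difference, dexamethasone minus ethanol, was between −0.67 (PDZD2 and SH3TC2) and 0.67 peaks (HPCAL1), and the adjusted exact p was 1 at all 6 loci. At SH3TC2 each dexamethasone library had 8 peaks and the ethanol libraries 8, 9 and 9 (unadjusted exact p = 0.4, the lowest of the 6). With 3 libraries against 3 no locus could have passed 0.05. The difference over the 6 loci turned positive without dexamethasone replicate 2 (0.83 peaks) and without ethanol replicate 2 or 3 (0.17 each).

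**Figure D4:**
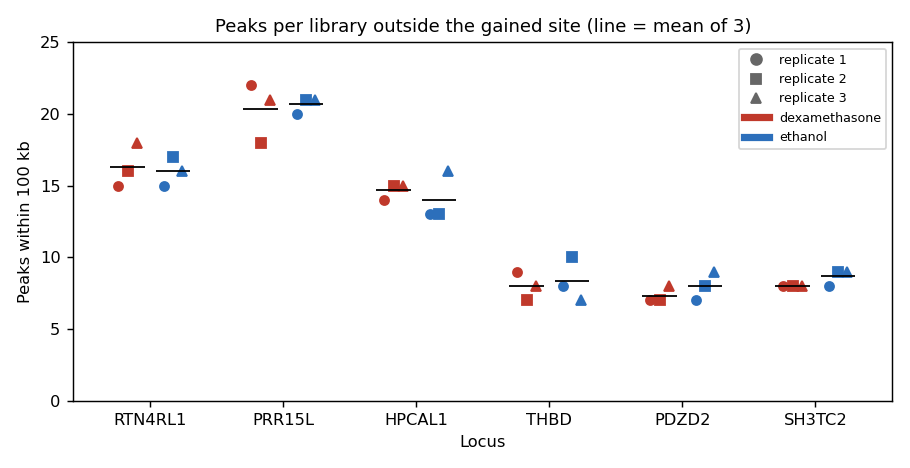
Number of peaks per library within 100 kb of each site, the site itself left out, for 3 dexamethasone (red) and 3 ethanol (blue) libraries, with the mean as a line. The values of the treatments overlap at all 6 loci, and the means differ by at most 0.67 peaks.

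The regions open in both treatments were then compared by strength. Ranks were counted from the strongest peak of each list downwards, so that they do not depend on how many weak peaks follow. Of the 59 neighbouring regions called in all 6 libraries, 8 (13.6%) ranked higher in every dexamethasone than in every ethanol library, against 5.67% of all 39934 such regions genome-wide. The reverse held for 1 of 59 (1.69%), against 5.80%. That count of 1 was 7 without dexamethasone replicate 1, 3 without dexamethasone replicate 2 or 3 or ethanol replicate 1 or 3, and 1 without ethanol replicate 2. The count of 8 ran from 8 to 12 in these settings. With 1 library fewer the rule is looser, and its share of all shared regions was not computed. These counts therefore cannot be set against 5.67% or 5.80%. Among the 4873 shared regions within 100 kb of the other dexamethasone-only regions, the shares were 6.24% and 6.67%. The 59 regions as a whole split nearly evenly between treatments. Their mean percentile was higher with dexamethasone at 30 and lower at 29, while over all 39934 regions it was higher at 45.3%. The median difference was 0.20 points, and over all 39934 regions it was −0.43 points (quartiles −4.26 and 2.78).

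PDZD2 held 3 of the 8 regions, out of its 6 shared regions. At chr5:32059865-32060288, +69.0 kb from the site, the percentiles were 66.4, 70.7 and 81.7 in the dexamethasone and 40.8, 46.2 and 45.5 in the ethanol libraries. The folds there were 8.57, 10.3 and 10.8 against 6.88, 7.20 and 7.11, so that the groups did not overlap on either measure. The difference in mean percentile, 28.8 points, exceeded that of 99.4% of all shared regions. At chr5:32028050-32028488, +37.2 kb, the percentiles were 65.4, 69.7 and 76.2 against 52.7, 46.8 and 50.5, and the folds 9.25, 10.5 and 11.1 against 8.25, 7.77 and 7.98. This difference of 20.4 points exceeded that of 98.4% of shared regions. Both regions were named for their separate ranks, so a large difference follows in part from that choice. Their places among all shared regions are a description and not support. A difference of 26.3 points lay at THBD, −30.2 kb (chr20:22990281-22990714), but there the libraries overlapped, with percentiles of 3.66, 52.6 and 55.5 against 9.33, 1.67 and 22.0. That region was singled out after its values were seen.

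The remaining PDZD2 region with separate ranks, chr5:31929361-31929700 at −61.6 kb, separated only narrowly. The lowest-ranking dexamethasone peak stood at rank 23301 and the highest-ranking ethanol peak at 23757, and the percentiles, which depend on list length, overlapped (60.1 to 70.5 against 51.9 to 60.7). This region was also the strongest shared region of the locus by mean rank. The shared regions of PDZD2 left over, at −2.5, +54.2 and +85.9 kb, had ranks that overlapped between treatments. All 3 PDZD2 regions also kept separate ranks when peaks were ranked by fold enrichment.

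The other 5 such regions were spread over 4 loci. HPCAL1 had one at −71.8 kb (chr2:10410647-10411295), with percentiles of 86.3, 88.5 and 95 against 82.1, 76.5 and 71.1. PRR15L had one at +55.8 kb (chr17:46088667-46089016), with percentiles of 61.4, 64.1 and 72.9 against 55.5, 53.0 and 56.2. RTN4RL1 had a pair that lie 3.6 kb apart, at +73.4 kb (chr17:1958171-1958546; 70.9, 77.3 and 74.3 against 64.9, 68.9 and 69.7) and at +77.0 kb (chr17:1961831-1962134; 48.7, 56.0 and 49.6 against 38.0, 39.8 and 46.8). SH3TC2 had a weak one at +83.5 kb (chr5:148442072-148442363; 23.8, 14.2 and 17 against 6.61, 12.3 and 2.71), next to the region called in 2 dexamethasone libraries alone. Ranked by fold enrichment, the HPCAL1 region, the RTN4RL1 region at +73.4 kb and the SH3TC2 region no longer had separate ranks. THBD had none with separate ranks among its 6 shared regions.

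The one shared region that ranked higher with ethanol lay at RTN4RL1, +49.1 kb (chr17:1933885-1934229). Its percentiles were 67.5, 71.4 and 68.7 with dexamethasone against 79.6, 71.6 and 79.5 with ethanol, and dexamethasone replicate 2 and ethanol replicate 2 were nearly level. The counts changed with the window. Within 50 kb of the sites only 1 of 26 shared regions (3.85%), the PDZD2 region at +37.2 kb, ranked higher in every dexamethasone library, and within 200 kb 10 of 99 (10.1%) did. The reverse held for 1 of 26 within 50 kb and for 7 of 99 within 200 kb, so the contrast of 8 against 1 did not extend to the wider window. The 100 kb limit itself fell between regions called in all 6 libraries: the farthest one inside lay 98.6 kb (RTN4RL1) and the nearest one outside 102.2 kb (PDZD2) from its site.

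**Figure D5:**
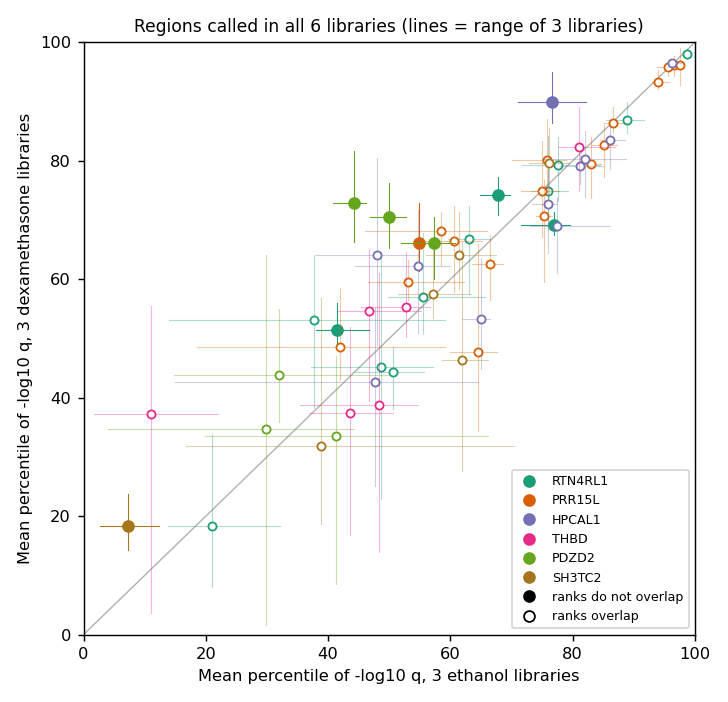
Mean percentile of −log10 q in the 3 dexamethasone libraries (y axis) against that in the 3 ethanol libraries (x axis) for the 59 neighbouring regions called in all 6 libraries, coloured by locus, with lines for the range of 3 libraries and filled points where ranks do not overlap between treatments. Of the 9 filled points, 8 lie above the diagonal, and 2 PDZD2 points lie farthest from it among the filled ones, at 28.8 and 20.4 points. An unfilled THBD point lies 26.3 points above it. Unfilled points also lie below it, with differences of −16.7 points at PRR15L and −15.5 points at SH3TC2.

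In the strongest shared region by mean rank of 5 loci, PDZD2 aside, the ranges of rank overlapped between treatments. At RTN4RL1 it lay at +60.2 kb (chr17:1944695-1945729), with a fold of 13.5 ± 0.54 with dexamethasone and 13.7 ± 0.87 with ethanol (SD, n = 3 each). At PRR15L it lay at +15.4 kb (11.8 ± 1.3 against 12.2 ± 0.02), though the region at −14.1 kb had higher folds (13.6 ± 0.65 against 13.3 ± 0.67). At HPCAL1 it lay at −39.9 kb (9.69 ± 0.13 against 9.83 ± 0.62). At THBD it lay at chr20:23030138-23031202 (7.83 ± 1.33 against 7.29 ± 0.75) and at SH3TC2 at −13.3 kb (11.2 ± 0.82 against 11.0 ± 1.02; SD, n = 3 each for these loci). The gained sites of RTN4RL1, PRR15L, HPCAL1 and SH3TC2 had lower mean folds than these regions, and the THBD site, at 7.69 ± 0.86 (SD, n = 3), differed from its neighbour by less than the SD.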

How the data were processed

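DNase-seq peaks of 3 dexamethasone and 3 ethanol libraries of A549 cells were used, with 1 deposited list each and positions on hg19. CASAVA 1.3, MACS2 2.1.0, Bowtie and bedtools are named, without settings, per the submitters' processing notes. The authors deposited for each summit a ratio, its fold enrichment, and the deposited −log10 q belongs to the peak within its own list. The summit is deposited as an offset from the peak start. No depth is given, so no intervals based on reads were computed.

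Overlapping peaks (1 bp or more) from any list were merged with Python 3.11.15 and pandas 2.3.3. A region belonged to a locus if a base of it lay within 100 kb of the given position. Where a library had several peaks in a region, the strongest was used. Positions count from 1. Numbers of peaks in the libraries were tested by exact two-sided permutation, with Benjamini-Hochberg adjustment over 6 loci. The merging and calls were tested on simulated data. All 6 sites, every region called in all 3 libraries of one treatment only or in at least 2 more libraries of one treatment, and, of shared regions, the strongest per locus and those with ranks separate between treatments were named. The members, lists and rules were chosen with earlier results of these data known. Settings also tried were a minimum −log10 q of 5, merging across 100 bp, lists of one length, a 50% cover, windows of 50 and 200 kb, ranks by fold, a replicate block and leaving out each library.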

Additional observations from a re-analysis of the deposited data

How the results depend on the processing

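All 6 sites kept a peak in every dexamethasone and in no ethanol library under each of the 11 alternatives run for them. This outcome was fixed beforehand and is no support. Leaving out a library cannot change such a call, and the strength, width and spacing of the chosen peaks settled the other settings. Equal replicate numbers were not taken as pairs in the main comparisons. Deviations of log2 fold over 39934 shared regions correlated at 0.17, 0.094 and 0.12 for numbers 1 to 3, under 0.1 for one of them. Unlike numbers correlated at −0.14 to 0.011, so each library correlated best with its own number. Deviations were taken from the mean of the 3 libraries of a treatment. Positive values for equal numbers therefore push those for unlike numbers down, and the latter are not separate evidence. What equal numbers have in common was not tested, and the main comparisons ignore it. Under the replicate block the neighbours held 4 dexamethasone-only and 2 ethanol-only regions, with 13 shared regions higher with dexamethasone and 4 with ethanol, by a looser rule. Without 1 library, dexamethasone-only neighbours numbered 1 to 3 and ethanol-only ones 0 to 1. Shared regions higher with ethanol then numbered 1 to 7 (1 with all libraries, 7 without dexamethasone replicate 1, 2 by fold, 7 within 200 kb). Those higher with dexamethasone numbered 8 to 12 without 1 library, 1 within 50 kb and 6 by fold, 5 of them among the 8. Shares of all shared regions were not computed for the block, for ranks by fold or without 1 library. The difference in peaks ranged from −3.33 to 0.83 without 1 library. By locus, signs reversed at RTN4RL1 (−0.33 within 200 kb, −0.5 to 1 without 1 library), PRR15L (−1.17 to 0.83), THBD (0.33 with lists of one length, 1 within 200 kb, −1 to 0.5 without 1 library) and SH3TC2 (0.33 with lists of one length). The cause of these changes was not tested. Unknown depth limits every absent call.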
